A study of Mus musculus with 6 samples.

Results

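This account follows 10 genes in endothelial cells (ECs) sorted from mouse kidneys. They were taken by gene name from the deposited table of read counts: 6 genes known from the descending vasa recta (DVR) or the renal medulla (Slc14a1, Aqp1, Cryab, Fxyd6, S100a4 and S100a6) and 4 genes of the cellular response to high osmolality (Slc5a3, Slc6a6, Akr1b3 and Nfat5). All 10 were among the 55401 genes listed and among the 18438 with enough counts to test. The study compared kidney ECs of mice labelled RbpjDEC, written RbpjΔEC here, with those of Cre-negative littermates (CTRL), with 3 libraries in each group and 1 mouse per library. The RbpjΔEC mice had the genotype Cre +/-; Rbpjf/f and the CTRL mice Cre -/-; Rbpjf/f, so both groups carried the floxed Rbpj alleles and differed in the transgene Cdh5(PAC)-CreERT2. This transgene drives a tamoxifen-dependent Cre recombinase from the promoter of the endothelial cadherin gene, and Cre activity deletes a floxed stretch of Rbpj, which encodes the DNA-binding protein of canonical Notch signalling. Male mice of both groups received tamoxifen, 5 doses of 1.5 mg, at 8 weeks of age. Kidneys were harvested 12 weeks later, and the labels give an age of 21 weeks for every mouse. Cells were enriched on magnetic beads and sorted as CD31+ CD45- cells from whole-kidney suspensions, so cortex and medulla were not separated.

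The vasa recta are the straight vessels that supply the renal medulla. The DVR branch from efferent arterioles, carry a continuous endothelium with the urea transporter encoded by Slc14a1 and the water channel encoded by Aqp1, and exchange urea and water with the ascending vasa recta (AVR), whose endothelium is fenestrated. Because the medullary interstitium is hypertonic, its cells accumulate organic osmolytes such as myo-inositol, taurine, betaine and sorbitol. The transcription factor encoded by Nfat5, also called TonEBP, binds tonicity-responsive elements (TonE) near the genes of osmolyte transporters and of aldose reductase.

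The RefSeq promoter table for GRCm38.p6, which holds 250 bases before and 50 after each gene's start, matched 6 of the 10 genes: Aqp1, Fxyd6, S100a4, S100a6, Slc5a3 and Nfat5. Slc14a1, Cryab, Slc6a6 and Akr1b3 had no entry. The core letters bound by RBPJ, TGGGAA, were searched on both strands and occurred in 4 of the 6 windows, against 25.6% of all 32851 promoters in the table. The 4 windows are shown because RBPJ is the factor whose gene is targeted. Each stretch of 60 bases is on the gene's strand, and the capitals mark the match, which lies on the opposite strand and therefore reads as its reverse complement.
Aqp1: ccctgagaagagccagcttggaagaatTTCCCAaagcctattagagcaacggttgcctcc
S100a4: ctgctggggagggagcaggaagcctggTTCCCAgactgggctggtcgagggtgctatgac
S100a6: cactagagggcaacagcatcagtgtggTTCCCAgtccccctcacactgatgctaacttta
Nfat5: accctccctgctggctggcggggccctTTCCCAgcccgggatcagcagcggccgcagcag
All 4 stretches lie on the plus strand of GRCm38.p6 and upstream of the start. The Aqp1 stretch is chr6:55336137-55336196, with the match beginning 135 bases before the start. The S100a4 stretch is chr3:90603603-90603662 (140 bases before), the S100a6 stretch chr3:90612793-90612852 (74 bases before) and the Nfat5 stretch chr8:107293272-107293331 (171 bases before). The core letters of the TonE, TGGAAA, occurred in 0 of the 6 windows against 21.4% of all promoters, and the full TonE consensus in 0 of 6 against 4.96%. Distances count from the RefSeq start, which for Aqp1 lies further upstream than the GENCODE gene start given with its values, and for S100a4 and S100a6 differs from it slightly. These are matches of letters within one window, and no binding was measured.

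Each library held between 39649171 and 47726850 counts on genes. Levels are given as CPM, the counts scaled to a common library size with edgeR's TMM method, and the floor was set at 3 counts, worth 0.0629 to 0.0757 CPM. CTRL 1 had counts on 33764 genes and the other 5 libraries on 25629 to 26785. Rbpj itself measured 29.2 ± 0.964 CPM in CTRL and 28.2 ± 1.86 CPM in RbpjΔEC (SD, n = 3 libraries each). Its log2 fold change of -0.05 did not pass the quasi-likelihood test of edgeR after Benjamini-Hochberg adjustment over the 18438 tested genes (adjusted p = 0.793), and counts over the whole gene do not separate deleted from intact transcripts. Hey1, a canonical Notch target gene, measured 16.7, 19.9 and 22.6 CPM in CTRL and 11.5, 8.92 and 14.6 CPM in RbpjΔEC. Its groups did not overlap, and its log2 fold change was -0.76 (adjusted p = 0.0722). The same test and adjustment are used for all adjusted p values below unless another test is named, with a threshold of 0.05. Fold changes are RbpjΔEC over CTRL on the log2 scale, with their standard error (SE) and 95% confidence interval (CI).

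None of the 10 genes passed the threshold: edgeR's quasi-likelihood test called 0 higher and 0 lower in RbpjΔEC, where 209 of all 18438 tested genes, or 1.13%, were called (0.575% higher and 0.559% lower). At an unadjusted p below the same threshold, Akr1b3 was higher and Slc6a6 and S100a6 were lower, so 3 of 10 against 17.5% of all tested genes (8.88% higher and 8.62% lower). DESeq2's Wald test, run as an alternative, called Akr1b3 higher (adjusted p = 0.0249) and Slc6a6 lower (adjusted p = 0.00231), so 2 of 10 against 1.52% of its 38324 tested genes. That set kept every gene with any count. All 10 genes had passed the count filter of the edgeR fit, so this share is not a like background for them. In these same genes, Slc6a6 and Akr1b3, the 3 libraries of one group lay entirely outside the range of the other, as was so for 23% of all tested genes. The fold change was below 0 for 8 of the 10 genes and for 48.9% of all tested genes. The median fold change was -0.35 over the 10 genes, -0.35 over the 6 DVR and medullary genes and -0.07 over the 4 osmotic response genes, beside 0.01 over all tested genes. In a bulk measurement of this kind, fewer cells of a type and less RNA per cell cannot be told apart.

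**Figure D1:**
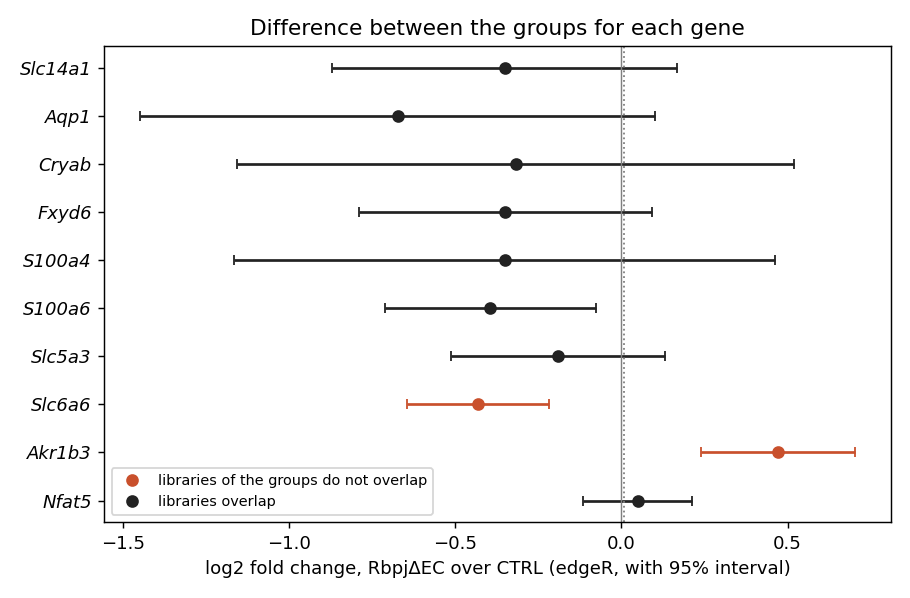
Fold change of each of the 10 genes, RbpjΔEC over CTRL, on the log2 scale (horizontal axis), with bars for the 95% confidence interval from edgeR on 3 libraries against 3. Solid and dotted grey lines mark 0 and the median of all tested genes; orange points are Slc6a6 and Akr1b3, whose groups did not overlap, and the intervals of Slc6a6, S100a6 and Akr1b3 do not reach 0.

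Of the transporters known from the DVR, Slc14a1 (ENSMUSG00000059336.14; GRCm38 chromosome 18, 78100091 to 78142119, minus strand) encodes the urea transporter UT-B, also present on red blood cells. It measured 3.67, 5.03 and 6.87 CPM in CTRL 1, 2 and 3 and 4.51, 4.24 and 3.44 CPM in RbpjΔEC 1, 2 and 3, from 138 to 290 counts per library. CTRL 1 lay within the RbpjΔEC range, and the other 2 CTRL libraries lay above it. The group means were 5.19 ± 1.61 and 4.06 ± 0.553 CPM, with a log2 fold change of -0.35 (SE 0.238, CI -0.87 to 0.17, adjusted p = 0.474). It was -0.55 without CTRL 1 and -0.10 without CTRL 3.
Aqp1 (ENSMUSG00000004655.5; chromosome 6, 55336432 to 55348555, plus strand) encodes the water channel aquaporin-1, which is also abundant in proximal tubule and thin descending limb cells. It measured 169.8, 244 and 343 CPM in the CTRL libraries and 129, 186 and 159.9 CPM in the RbpjΔEC libraries. The 2 lowest values were in RbpjΔEC and the 2 highest in CTRL, and RbpjΔEC 2 exceeded CTRL 1. The means were 252 ± 87.0 and 158 ± 28.5 CPM. The log2 fold change of -0.67 was the furthest from 0 of the 10, and it had a wide interval (SE 0.300, CI -1.45 to 0.10, adjusted p = 0.339). Without CTRL 1 the log2 fold change was -0.90, and without CTRL 3 it was -0.39.

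Slc14a1 and Aqp1 had the same order across the CTRL libraries, lowest in CTRL 1 and highest in CTRL 3. Of the cell types that share these transporters, the summed CPM of 8 proximal tubule markers had that order too, with 35.1, 65.0 and 107 in CTRL 1, 2 and 3. In RbpjΔEC 1, 2 and 3 it was 74.6, 81.6 and 329, so RbpjΔEC 3 held the most proximal tubule signal and had an Aqp1 level below CTRL 1. The summed CPM of 6 red blood cell genes was between 6.74 and 6.96 in CTRL and 3.48, 0.906 and 5.57 in RbpjΔEC, where the library with the least, RbpjΔEC 2, was not the lowest for Slc14a1. The part of either cell type in these levels was not tested.

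Among the other 4 DVR and medullary genes, Cryab and Fxyd6 were highest in CTRL 1, and S100a4 and S100a6 in CTRL 3. Cryab (ENSMUSG00000032060.10; chromosome 9, 50751325 to 50756636, plus strand) encodes alphaB-crystallin, a small heat shock protein that keeps damaged proteins soluble and is abundant in the renal medulla. It measured 30.2, 14.7 and 15.3 CPM in CTRL and 14.2, 20.2 and 13.8 CPM in RbpjΔEC. CTRL 1 stood above the other 5 libraries, and the other 2 CTRL libraries lay within the RbpjΔEC range. The means were 20.1 ± 8.77 and 16.1 ± 3.56 CPM and the log2 fold change was -0.32 (SE 0.337, CI -1.16 to 0.52, adjusted p = 0.680), which turned to 0.096 without CTRL 1. Cryab shares 252 exonic bases with Hspb2 on the opposite strand, and Hspb2 had at most 17 counts in a library.
Fxyd6 (ENSMUSG00000066705.7; chromosome 9, 45370185 to 45396159, plus strand) encodes a small membrane protein that regulates the sodium-potassium pump. It measured 11.3, 7.54 and 10.1 CPM in CTRL and 7.004, 9.65 and 6.04 CPM in RbpjΔEC. RbpjΔEC 2 lay within the CTRL range and the other 2 RbpjΔEC libraries below it. The means were 9.65 ± 1.92 and 7.57 ± 1.87 CPM, and the log2 fold change was -0.35 (SE 0.201, CI -0.79 to 0.09, adjusted p = 0.398). It was -0.23 without CTRL 1, -0.21 without RbpjΔEC 3 and -0.56 without RbpjΔEC 2.

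CTRL 1 was also the library with the most signal from collecting duct and loop of Henle cells. The 7 collecting duct markers summed to 33.7 CPM in CTRL 1, 14.3 in CTRL 2 and 12.5 in CTRL 3, and to 2.91 to 6.41 CPM in RbpjΔEC. The 5 loop of Henle markers summed to 253 CPM in CTRL 1, 124 in CTRL 2 and 149 in CTRL 3, and to 40.2 to 97.8 CPM in RbpjΔEC. RbpjΔEC 2 had the least of both sums, and its Cryab and Fxyd6 levels were the highest of the RbpjΔEC group. Umod and Slc12a1, thick ascending limb genes of cortex and medulla, made up most of the loop of Henle sum. Slc14a2, the tubular urea transporter gene of the inner medulla on the same list, measured 6.04, 0.190 and 2.72 CPM in CTRL and 0.401, 3.39 and 1.77 CPM in RbpjΔEC, and like Cryab and Fxyd6 it was highest in CTRL 1 and, within its group, in RbpjΔEC 2. The part of tubule cells in the Cryab and Fxyd6 levels was not tested.

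S100a4 and S100a6 encode calcium-binding proteins of the S100 family and lie close together on chromosome 3. S100a4 (ENSMUSG00000001020.8; 90603771 to 90606045, plus strand), which is also abundant in fibroblasts and leukocytes, rested on 41 to 116 counts per library. It measured 1.02, 1.29 and 2.75 CPM in CTRL and 1.45, 1.26 and 1.25 CPM in RbpjΔEC. CTRL 3 stood above the other 5 libraries, and CTRL 1 was the lowest of all. The means were 1.69 ± 0.928 and 1.32 ± 0.112 CPM. The log2 fold change of -0.35 (SE 0.373, CI -1.17 to 0.46, adjusted p = 0.669) was 0.19 without CTRL 3. S100a4 shares 302 of its 584 exonic bases with Gm42674 on the same strand, which had 0 counts in every library, and how reads in shared bases were counted is not given in the sources used here.
S100a6 (ENSMUSG00000001025.8; chromosome 3, 90612882 to 90624181, plus strand) measured 45.3, 38.0 and 54.7 CPM in CTRL and 31.1, 33.2 and 40.7 CPM in RbpjΔEC. Only CTRL 2 and RbpjΔEC 3 crossed the gap between the groups. The means were 46.0 ± 8.39 and 35.0 ± 5.01 CPM, and the log2 fold change was -0.40 (SE 0.142, CI -0.71 to -0.08). The adjusted p in edgeR was 0.192 (0.0199 unadjusted), and without CTRL 3 the fold change was -0.25. The 6 interstitial fibroblast markers summed to 4.63 to 7.08 CPM in CTRL and 1.54 to 2.92 CPM in RbpjΔEC, and the 7 leukocyte markers to 2.11 to 7.98 and 1.58 to 3.47 CPM, with the defining T cell gene Cd3e at 0 counts in every library. CTRL 1 held the most of both sums and the least S100a4. Their part in the S100 levels was not tested.

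**Figure D2:**
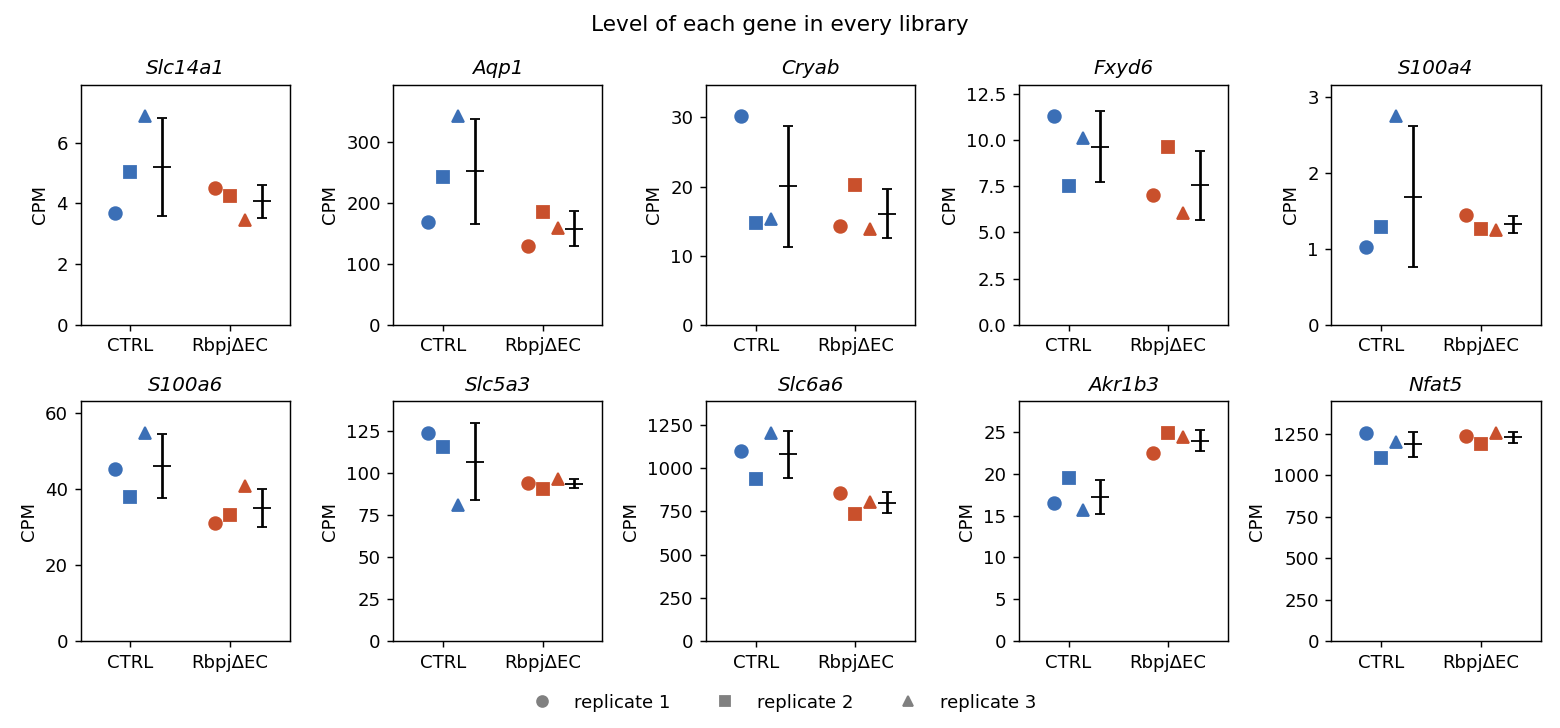
CPM (vertical axes, each from 0) of the 10 genes in every library, CTRL in blue and RbpjΔEC in orange, with symbols for the replicate and a black bar for the mean ± SD of 3 libraries. The groups are apart for Slc6a6 (736 to 858 CPM in RbpjΔEC, 935 to 1204 in CTRL) and for Akr1b3 (22.5 to 24.9 against 15.7 to 19.5), and they overlap for the other 8 genes.

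The 4 osmotic response genes had no common direction. Both transporters among them had fold changes below 0. Slc6a6 (ENSMUSG00000030096.8; chromosome 6, 91684053 to 91759066, plus strand) encodes the taurine transporter, and taurine is one of the osmolytes that cells take up in hypertonic surroundings. It measured 1099, 935 and 1204 CPM in CTRL and 858, 736 and 805 CPM in RbpjΔEC. Every RbpjΔEC library lay below every CTRL library. The means were 1079 ± 135 and 799.9 ± 61.2 CPM, so that the mean in RbpjΔEC was 74.1% of that in CTRL. The log2 fold change was -0.43 (SE 0.0977, CI -0.65 to -0.22), with an adjusted p of 0.0600 (0.000892 unadjusted) in edgeR. An exact permutation test on the CPM values, two-sided, gave p = 0.1, the smallest that 3 libraries against 3 allow. Any gene whose groups do not overlap gives this value, so it adds nothing to the lack of overlap. The adjusted p was 0.0134 without CTRL 2 and 0.212 without CTRL 3, the extremes over the 6 fits that left out 1 library. With the pan-endothelial counts as library size, which put the median of all tested genes at 0.22, the log2 fold change was -0.22 (adjusted p = 0.131).
Slc5a3 (ENSMUSG00000089774.2; chromosome 16, 92058322 to 92087473, plus strand) encodes the sodium-dependent myo-inositol transporter. It measured 124, 115 and 81.1 CPM in CTRL and 93.9, 90.7 and 96.3 CPM in RbpjΔEC. The 3 RbpjΔEC libraries lay close together inside the CTRL range, below CTRL 1 and CTRL 2 and above CTRL 3. The means were 107 ± 22.7 and 93.6 ± 2.78 CPM, with a log2 fold change of -0.19 (SE 0.141, CI -0.51 to 0.13, adjusted p = 0.525). Without CTRL 3 it was -0.36 (adjusted p = 0.122) and without CTRL 1 it was -0.073. This direction turned, to 0.016, when the pan-endothelial counts were used as the library size, the scaling with an all-gene median of 0.22. Slc5a3 shares 159 exonic bases with Mrps6, a mitochondrial ribosomal protein gene on the same strand. Mrps6 had 19.6 ± 1.56 CPM in CTRL and 22.7 ± 0.925 CPM in RbpjΔEC (log2 fold change 0.21, adjusted p = 0.286).

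Akr1b3 (ENSMUSG00000001642.18; chromosome 6, 34302434 to 34317478, minus strand) encodes aldose reductase, which makes the osmolyte sorbitol from glucose. It measured 16.6, 19.5 and 15.7 CPM in CTRL and 22.5, 24.9 and 24.4 CPM in RbpjΔEC. Every RbpjΔEC library lay above every CTRL library, which among the 10 genes was so for Akr1b3 alone. The means were 17.3 ± 2.01 and 23.9 ± 1.24 CPM, and the RbpjΔEC mean was 139% of the CTRL mean. The log2 fold change was 0.47 (SE 0.106, CI 0.24 to 0.70), with an adjusted p of 0.0582 (0.000817 unadjusted) in edgeR. The exact permutation test again gave its smallest value, p = 0.1, as it must where the groups do not overlap. Leaving out 1 library in turn gave adjusted p values from 0.0195 without CTRL 2 to 0.203 without CTRL 3. With the pan-endothelial counts as library size it was 0.0162. Akr1b3 belongs to a family of closely related aldo-keto reductase genes, and how reads that align to more than 1 gene were counted is not given in the sources used here.
Nfat5 (ENSMUSG00000003847.16; chromosome 8, 107293470 to 107379517, plus strand) encodes the osmosensitive transcription factor itself. It measured 1254, 1105 and 1198 CPM in CTRL and 1236, 1188 and 1255 CPM in RbpjΔEC. The RbpjΔEC libraries lay within or just above the CTRL range. The means were 1185 ± 75.4 and 1226 ± 34.2 CPM, and the log2 fold change was 0.05 (SE 0.0747, adjusted p = 0.777). Its interval, from -0.11 to 0.21, was the narrowest of the 10.

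The 10 genes varied to different degrees within the groups. The coefficient of variation (CV) over the CTRL libraries was 55.1% for S100a4, 43.7% for Cryab, 34.5% for Aqp1 and 31.0% for Slc14a1, against a median of 12.7% over all tested genes. Slc6a6, Akr1b3 and Nfat5 had CTRL CVs of 12.5%, 11.7% and 6.36%. Over the RbpjΔEC libraries the CV was lower than over CTRL for 9 of the 10 genes, the exception being Fxyd6 with 24.7% against 19.9%, and the median of all tested genes was 11.8%. CTRL 3 was the highest of the 6 libraries for 4 of the 6 DVR and medullary genes and for 18.9% of all tested genes. CTRL 1 was the highest for the remaining pair, Cryab and Fxyd6. The median over the 6 genes of the log2 level relative to the CTRL mean was -0.26, -0.32 and 0.33 in CTRL 1, 2 and 3 and -0.48, -0.35 and -0.57 in RbpjΔEC 1, 2 and 3. The 3 RbpjΔEC values lay below the CTRL values, with RbpjΔEC 2 close to CTRL 2. For the 4 osmotic response genes the same medians were between -0.06 and 0.05 in CTRL and between -0.12 and -0.03 in RbpjΔEC, an overlap.

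**Figure D3:**
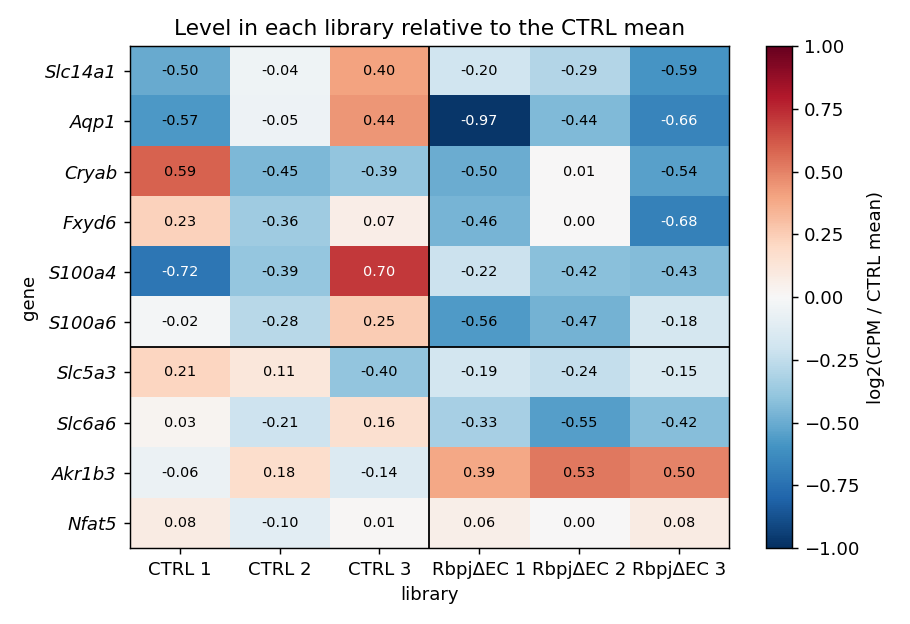
Level of each gene (rows) in each library (columns) as log2 of its CPM over the CTRL mean, from -1 in blue to 1 in red, with the value in each cell; lines divide the groups and the DVR and medullary genes (upper rows) from the osmotic response genes. CTRL 3 is the highest library for Slc14a1, Aqp1, S100a4, S100a6 and Slc6a6 and CTRL 1 for Cryab, Fxyd6 and Slc5a3, and in the RbpjΔEC libraries Akr1b3 reads 0.39 to 0.53 while no other gene exceeds 0.08.

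To compare levels between genes, CPM were divided by exonic length (CPM per kb, GENCODE M21). In CTRL the order was Slc6a6 (128 ± 15.99), Aqp1 (96.1 ± 33.1), Nfat5 (64.5 ± 4.10), S100a6 (33.7 ± 6.14), Cryab (13.6 ± 5.93), Slc5a3 (9.79 ± 2.08), S100a4 (2.89 ± 1.59), Fxyd6 (2.35 ± 0.468), Akr1b3 (2.06 ± 0.240) and Slc14a1 (1.30 ± 0.402). Of the 9 pairs of neighbours in this order, 5 had overlapping libraries: Slc6a6 with Aqp1, Aqp1 with Nfat5, Cryab with Slc5a3, S100a4 with Fxyd6, and Fxyd6 with Akr1b3. The urea transporter that marks the DVR was therefore the lowest of the 10 per length, while the water channel was near the top. In RbpjΔEC the means of Nfat5 (66.7 ± 1.86) and Aqp1 (60.2 ± 10.9) changed places, and their libraries overlapped. Akr1b3 (2.85 ± 0.148) stood above S100a4 (2.26 ± 0.192) and Fxyd6 (1.84 ± 0.456) in RbpjΔEC, with no overlap. With the length of the principal transcript in place of all exonic bases, Akr1b3 moved from ninth to sixth place with 12.4 CPM per kb, and Slc14a1 stayed last with 1.42.

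Related genes were read from lists written around the same pathways. Among 7 other arteriolar and DVR genes edgeR's quasi-likelihood test called 0, with 3 lower and 0 higher at an unadjusted p below 0.05, and the median log2 fold change was -0.43. Gja4, which encodes the arterial gap junction protein connexin 37, had 39.1 ± 9.08 CPM in CTRL and 24.4 ± 1.76 CPM in RbpjΔEC without overlap (log2 fold change -0.68, adjusted p = 0.0622), and DESeq2's Wald test called it lower (adjusted p = 9.277e-04). Its fold change in edgeR was -0.48 without CTRL 3. Scin, which encodes the actin-severing protein scinderin, had 81.0 ± 20.3 and 59.1 ± 4.44 CPM (-0.45, adjusted p = 0.250, and -0.27 without CTRL 3). Efnb2, which encodes the arterial ligand ephrin-B2, had 921 ± 13.7 and 826 ± 43.4 CPM without overlap (-0.16, adjusted p = 0.275). CTRL 3 was the highest library for 5 of these 7 genes. Of 5 AVR and medullary capillary genes edgeR called 0, with 1 lower at an unadjusted p, and the median was -0.11. Fold changes were above 0 for 2 of the 5, Igf1 (0.39, adjusted p = 0.704) and Nr2f2 (0.07, adjusted p = 0.841), both with overlap. Plvap, which encodes the diaphragm protein of fenestrated endothelium, had 4203 ± 581 and 3905 ± 368 CPM (-0.11, adjusted p = 0.658). Tek, the angiopoietin receptor, had 1960.3 ± 109 and 1753 ± 70.3 CPM (-0.16, adjusted p = 0.300), and the fatty acid translocase Cd36 had 293 ± 25.1 and 229 ± 44.4 CPM (-0.36, adjusted p = 0.217, and -0.22 without RbpjΔEC 3), both without overlap. With the pan-endothelial counts as library size the directions of Efnb2, Tek and Plvap turned, to 0.054, 0.052 and 0.11, all below that scaling's median of 0.22.

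Of 17 other osmotic response genes, 15 had enough counts to test. edgeR's quasi-likelihood test called 0 of them, with 3 higher and 0 lower at an unadjusted p below 0.05, and their median was -0.03. Slc38a2, a sodium-coupled amino acid transporter that hypertonicity induces, measured 266, 397 and 280.3 CPM in CTRL and 473, 484 and 581 CPM in RbpjΔEC. Hspa1b, an inducible heat shock protein 70 gene with a near-identical copy in Hspa1a, measured 440.1, 634 and 569 CPM in CTRL and 777, 1055 and 837 CPM in RbpjΔEC. For both genes every RbpjΔEC library lay above every CTRL library. The groups were also apart, in the other direction, for 2 genes named here after their values were seen: Hspa4l, a heat shock protein 70 relative, with 7.98 ± 1.85 and 6.04 ± 0.766 CPM (-0.40, adjusted p = 0.292), and the kinase gene Wnk1, with 667 ± 41.7 and 612 ± 1.29 CPM (-0.13, adjusted p = 0.389). For Hspa4l, CTRL 2 stood at 10.1 CPM, and CTRL 3 (6.701 CPM) barely exceeded RbpjΔEC 2 (6.699 CPM). Fits that left out a library were not read for Hspa4l and Wnk1. Slc38a2 and Hspa1b each had a log2 fold change of 0.70, with adjusted p values from edgeR of 0.0922 and 0.0840. DESeq2's Wald test called Slc38a2 and Hspa1b higher, with adjusted p values of 3.167e-05 and 2.901e-05. The small heat shock gene Hspb1 had 140.3 ± 20.4 and 176 ± 29.1 CPM (0.33, adjusted p = 0.257, and 0.19 without RbpjΔEC 2). The betaine transporter gene Slc6a12, a classical target of NFAT5, was too low to test, with 11 counts in CTRL 1, 1 in CTRL 3 and 0 in the other 4 libraries.

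The families of the 10 genes were followed as well. Of 13 other aquaporin, urea transporter and FXYD genes 10 were tested. edgeR's quasi-likelihood test called 0 of them, with 5 lower and 0 higher at an unadjusted p below 0.05, and all 10 fold changes were below 0 with a median of -0.87. Most are tubule genes, and CTRL 1 was the highest library for 8 of the 10. Aqp2, the vasopressin-regulated water channel of the collecting duct, had 4.83 ± 4.12 CPM in CTRL and 0.707 ± 0.431 CPM in RbpjΔEC without overlap (-2.77, adjusted p = 0.159, and -1.80 without CTRL 1). Aqp4, its basolateral partner, had 0.640 ± 0.423 and 0.171 ± 0.156 CPM (-1.90, adjusted p = 0.191), and its fold change was -1.23 without CTRL 1 and -2.93 without RbpjΔEC 3. Fxyd5, another regulator of the sodium pump, had 58.8 ± 1.47 and 45.5 ± 4.95 CPM without overlap (-0.37, adjusted p = 0.0670), and DESeq2's Wald test called it lower (adjusted p = 0.0338). Of 10 other S100 genes 6 were tested and edgeR called 0, with 1 higher and 2 lower at an unadjusted p and a median of -0.22. S100a14 had 0.404 ± 0.230 and 1.22 ± 0.117 CPM without overlap (1.57, adjusted p = 0.106). S100a16 had 61.9 ± 7.83 and 50.2 ± 3.55 CPM (-0.30) and S100a1 38.3 ± 6.51 and 29.7 ± 1.34 CPM (-0.36), both without overlap and with an adjusted p of 0.137. Without CTRL 3 their fold changes were -0.20 and -0.24. As in S100a4 and S100a6, CTRL 3 was the highest library for 5 of these 6 genes. Of 5 small heat shock genes 3 were tested, all with fold changes above 0, and edgeR called 0, with Hspb1 higher at an unadjusted p. Beside Hspb1 these were Hspb6 with 3.76 ± 1.23 and 5.11 ± 0.516 CPM (0.44, adjusted p = 0.363) and Hspb8 with 6.15 ± 1.10 and 7.02 ± 1.12 CPM (0.19, adjusted p = 0.633). Of the 4 other NFAT genes edgeR called 0 and none passed an unadjusted p, and they had a median of -0.09. Only 1 fold change was above 0, that of Nfatc2 with 1.59 ± 0.510 and 1.61 ± 0.763 CPM (0.01, adjusted p = 0.993). Nfatc3 had 98.7 ± 2.65 and 91.8 ± 3.52 CPM without overlap (-0.10, adjusted p = 0.447) and Nfatc1 73.3 ± 5.20 and 69.9 ± 4.7999 CPM (-0.07, adjusted p = 0.702), both turned by pan-endothelial scaling (0.11 and 0.14), and Nfatc4 had 0.843 ± 0.392 and 0.687 ± 0.335 CPM (-0.30, adjusted p = 0.795). Over these 7 lists, DESeq2's Wald test called no gene beyond Slc38a2, Hspa1b, Gja4 and Fxyd5.

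**Figure D4:**
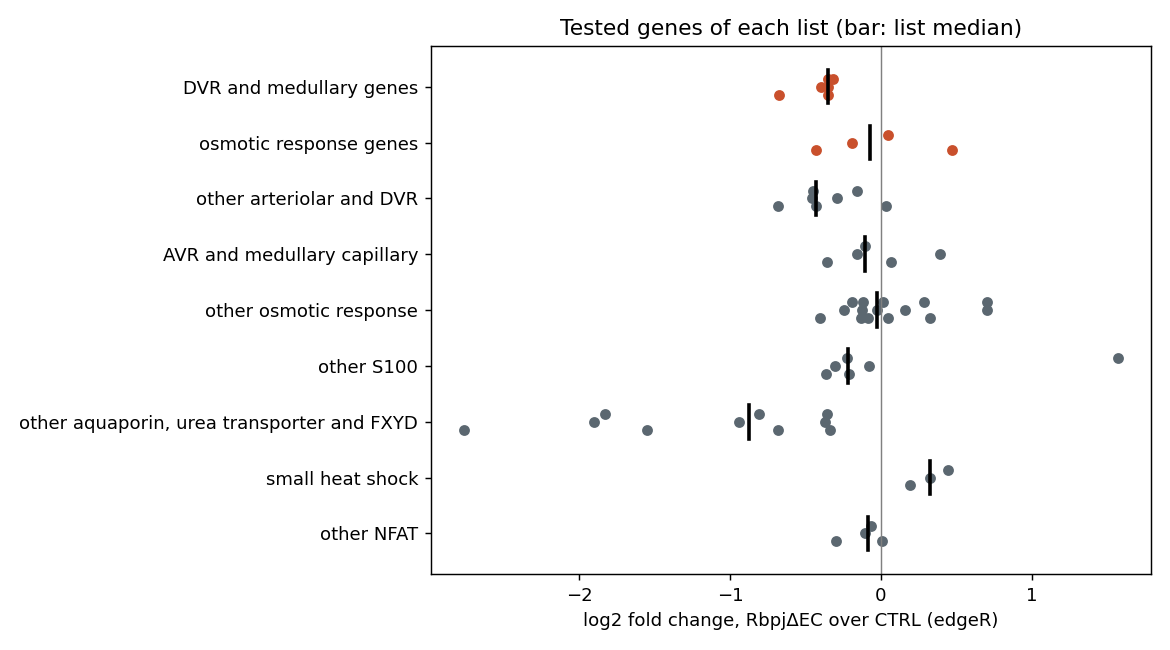
Log2 fold change, RbpjΔEC over CTRL (horizontal axis), of every tested gene in the lists (rows), with black bars for the list medians, orange for the 10 genes described here and grey for related genes. The 6 DVR and medullary genes all lie below 0 with a median of -0.35, the 4 osmotic response genes lie on both sides, and the other aquaporin, urea transporter and FXYD genes reach furthest below 0.

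Markers of the sorted cells and of cells that could accompany them were read beside these values. The 10 pan-endothelial markers summed to 20497 to 22454 CPM in CTRL and 18580 to 18783 CPM in RbpjΔEC without overlap, far above every other marker list. edgeR's quasi-likelihood test called 0 of the 10, with 4 lower and 1 higher at an unadjusted p, and Pecam1, the gene of CD31, ranged from 2010.01 to 2324 CPM in CTRL and from 1889 to 2078 CPM in RbpjΔEC. The 4 glomerular EC markers summed to 1785 to 2246 and 1187 to 1639 CPM, and Lpl, lipoprotein lipase, passed (log2 fold change -0.84, adjusted p = 0.0212). Ehd3, the first glomerular marker, had 1036 ± 132 and 733 ± 87.2 CPM (-0.50, adjusted p = 0.0611). The 8 mural markers summed to 85.1 to 111.6 and 35.0 to 56.5 CPM, with 3 of them lower: the smooth muscle genes Acta2 (-1.30, adjusted p = 0.0369) and Myh11 (-1.08, adjusted p = 0.0468) and the pericyte gene Rgs5 (-0.88, adjusted p = 0.0468). Of the collecting duct markers, the sodium channel subunit gene Scnn1g (-2.89, adjusted p = 0.0154) and the cortisol-inactivating enzyme gene Hsd11b2 (-2.09, adjusted p = 0.0121) were lower, and of the fibroblast markers Pdgfra (-1.67, adjusted p = 0.0468). The proximal tubule gene Lrp2 had 25.8 ± 13.5 and 62.5 ± 57.8 CPM (1.27, adjusted p = 0.523, and 0.17 without RbpjΔEC 3), the leukocyte gene Ptprc 2.59 ± 1.38 and 0.957 ± 0.564 CPM (-1.44, adjusted p = 0.188), and the haemoglobin gene Hba-a1 0.865 ± 0.110 and 0.347 ± 0.283 CPM (-1.31, adjusted p = 0.343, and -0.77 without RbpjΔEC 2). Slc14a2 had 2.98 ± 2.93 and 1.85 ± 1.49 CPM (-0.68, adjusted p = 0.830), a difference of 0.35 without CTRL 1, and the fibroblast gene Col1a1 was too low to test, with 0 to 9 counts per library. None of the 7 called markers passed without RbpjΔEC 1 (adjusted p from 0.0742 to 0.186). Without CTRL 1, 6 were lost (0.0544 to 0.147, all but Hsd11b2), without CTRL 3, 5 (0.0563 to 0.173), without RbpjΔEC 2, 4 (0.0548 to 0.135), and without CTRL 2, Rgs5 (0.0599). Rgs5 was also lost when libraries were scaled by size alone (0.0553). The mural, collecting duct, loop of Henle, fibroblast and red blood cell sums were thus lower in every RbpjΔEC library, as were the sums of pan-endothelial and glomerular EC markers. Their part in the levels of the 10 genes was not tested.

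**Figure D5:**
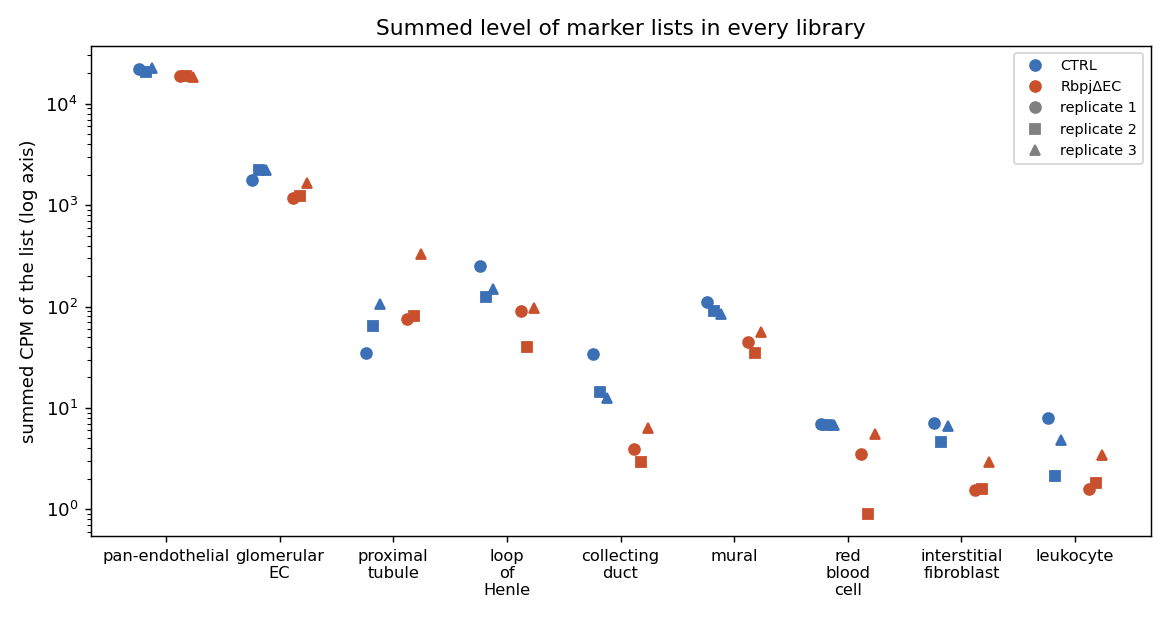
Summed CPM (vertical log axis) of the marker lists of each cell type in every library, CTRL in blue and RbpjΔEC in orange, with symbols for the replicate. The pan-endothelial sums (18580 to 22454) exceed the sums of the tubule, mural, blood and interstitial lists in every library, and the groups overlap for the proximal tubule and leukocyte lists.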

How the data were processed

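RNA of sorted kidney ECs was sequenced in 1 common run from stranded total RNA libraries of 3 CTRL and 3 RbpjΔEC mice. Per the labels and the submitters' processing notes, reads were trimmed with Trim Galore 0.6.4, aligned with STAR 2.6.1d to GRCm38.p6 and counted per gene with featureCounts (Subread 1.6.4), and the authors deposited raw counts without normalization. The strand setting of the counting is not given in the sources used here. Groups were taken from the sample labels.

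From these counts, edgeR 4.0.16 in R 4.3.3 gave CPM, fold changes and p-values (TMM, filterByExpr, robust quasi-likelihood fit, genotype alone, 3 libraries against 3) and Benjamini-Hochberg adjustment over 18438 genes. The standard error was taken from the fold change and the F statistic. DESeq2 1.42.0, run without outlier or independent filtering, was an alternative, as were other scalings, other filters, the replicate number as a block and each library left out.

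The 10 genes and all lists were chosen with earlier results of these data known, so lists have no test. Named genes are the 10 genes, Hspb2 and Mrps6, in each related list the genes past the threshold or the 3 with the smallest p, and of the marker lists the first gene and those past the threshold. Rbpj was added as the targeted gene. Hey1, Gm42674, Cd3e, Slc6a12, Hspa4l, Wnk1, Umod, Slc12a1, Igf1, Nr2f2 and Nfatc2 were added after their values were seen. Planned correlations between the genes over libraries were not computed. Positions and exonic lengths came from GENCODE M21 on GRCm38, and positions can differ in the authors' release. Mice are the replicates, and genes with few counts, such as S100a4, are measured less precisely.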

Additional observations from a re-analysis of the deposited data

How the results depend on the processing

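Of the 10 genes, edgeR called 1 higher (Akr1b3) under library size alone, under pan-endothelial scaling and without the count filter, and DESeq2 called 1 higher. Genes lower numbered 2 without the filter, 1 with DESeq2 and 1 with the replicate block. Leaving out 1 library gave 0 to 1 in each direction. Among the related genes, 4 were higher and 1 lower under pan-endothelial scaling, 4 and 9 without the filter, 2 and 2 with DESeq2 and 2 and 1 with the block, with 0 to 2 and 0 to 3 when 1 library was left out. Over all genes, the 106 higher and 103 lower became 1729 and 107 under pan-endothelial scaling, 717 and 719 without the filter, and 262 and 322 with DESeq2. They became 166 and 178 with the block, 159 and 82 under library size alone, and 7 to 401 and 13 to 333 without 1 library. The cause was not tested.

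The median of the 10 genes was -0.13 under pan-endothelial scaling and -0.51 (without CTRL 2) to -0.23 (without RbpjΔEC 3) without 1 library, and that of the 4 osmotic response genes 0.14 and -0.15 to 0.0070. The median of the 6 DVR and medullary genes was -0.13 under pan-endothelial scaling and -0.51 to -0.28 without 1 library. Medians of the related lists were read from the main fit alone, so their dependence on 1 library was not measured. All values under pan-endothelial scaling stand beside an all-gene median of 0.22. That scaling also turned Slc5a3 (0.016), Efnb2 (0.054), Tek (0.052), Plvap (0.11), Nfatc3 (0.11), Nfatc1 (0.14) and Pecam1 (0.046). Leaving out 1 library gave -0.51 to 0.096 for Cryab, -0.61 to 0.19 for S100a4, -0.0062 to 0.087 for Nfat5, -0.62 to 0.050 for Nfatc4 (0.049 without CTRL 2) and -1.46 to 0.35 for Slc14a2. It moved Plvap (-0.21 to -0.012), Nfatc1 (-0.11 to -0.012), Hspb6 (0.24 to 0.72) and Hspb8 (0.083 to 0.34) by over 1.5 times with no change of direction.

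The replicate numbers did not pair the libraries: deviations from the group means of same-numbered libraries correlated at 0.027, 0.0036 and 0.0097. With the replicate block the adjusted p of Slc6a6 was 0.0225 and that of Akr1b3 0.0538. DESeq2 size factors in the edgeR fit and a filter of 10 counts in 3 libraries changed no count by more than 1.5 times.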
